A study of Mus musculus with 12 samples.

Results

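The oxidative phosphorylation (OXPHOS) genes were examined in RNA from 3 cultured mouse lines, the non-tumorigenic Melan-A melanocyte line and the B16F0 and B16F10 melanoma lines, each sequenced untreated and after SX-682, a small-molecule antagonist of CXCR1 and CXCR2. Members were the protein-coding genes whose symbols begin with Nduf followed by a, b, c, s or v, with Uqcr, with Cox4 to Cox8, with Atp5 or with mt-, together with Sdha, Sdhb, Sdhc and Sdhd. This gave 105 of the 34513 genes in the deposited table, of which 92 were nuclear and 13 were encoded in mitochondrial DNA. The expression filter kept 103 members, and the 2 that did not pass were the nuclear genes Cox4i2 and Cox6b2. The groups were untreated Melan-A, Melan-A with SX-682, untreated B16F0, B16F0 with SX-682, untreated B16F10 and B16F10 with SX-682, with 2 libraries in each. The labels call the controls untreated, and neither its dose nor the length of exposure in these cultures is given in the sources used here. Each line is a single established line, so that a difference between lines is a difference between those cultures, and the labels do not say that the 2 replicates of a group were separate cultures. The p-values therefore measure only the spread between these libraries, which may be technical.

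OXPHOS couples the oxidation of NADH and succinate to ATP synthesis in the inner mitochondrial membrane. Electrons enter at complex I (NADH dehydrogenase) or complex II (succinate dehydrogenase), pass through complex III (cytochrome bc1) to complex IV (cytochrome c oxidase), and the proton gradient drives complex V (ATP synthase). Mitochondrial DNA encodes core subunits of complexes I, III, IV and V from long polycistronic transcripts, while the remaining subunits, all of complex II and every assembly factor are encoded in the nucleus. The nuclear members comprised 37 genes of complex I, 8 complex I assembly factors of the Ndufaf series, 4 of complex II, 8 of complex III, 18 of complex IV (Ndufa4 and its paralogue Ndufa4l2 were placed here) and 17 of complex V.

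Library totals lay between 48876982 and 85322092 counts. Levels below are CPM, that is counts scaled to a common library size, with library sizes adjusted by the trimmed mean of M-values (TMM), and changes are log2 fold changes with standard errors (SE) from edgeR's quasi-likelihood test on all 12 libraries, called at a Benjamini-Hochberg adjusted p under 0.05 over 18338 genes. Replicates lay close together (biological coefficient of variation 2.78%), so that changes well under 1 log2 unit passed the threshold, and large parts of the transcriptome were called in every comparison. With 2 libraries against 2, an exact permutation test cannot give a 2-sided p under 0.333, and the calls borrow their error from all genes and from the 6 groups. Of 7 melanocyte markers, all were detected in every line, and their summed level was 1344 to 1374 CPM in untreated Melan-A, 18580 to 18664 CPM in untreated B16F0 and 24442 to 24471 CPM in untreated B16F10. The melanin enzyme gene Tyr averaged only 0.826 CPM in untreated Melan-A. Summed keratinocyte markers did not exceed 10.8 CPM and summed leukocyte markers 9.20 CPM in any library. Both sums were highest in untreated Melan-A, mostly as Cdh1, Krt10 and Trp63 and as Lyz2 and Csf1r. In the B16 libraries they reached at most 1.55 and 0.61 CPM. Krt5, Cd3e and Itgam were at or near 0 in every group. Fibroblast markers reached 115.5 CPM in untreated Melan-A, mostly as Col1a1 and Col3a1, against at most 16.8 CPM in the B16 libraries.

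Of the mitochondrially encoded genes, 6 had very low counts, and near-identical copies of 5 of them lie in the nuclear genome. mt-Co2, mt-Atp8, mt-Atp6, mt-Co3, mt-Nd3 and mt-Nd4l had between 12 and 2345 counts per library, whereas mt-Co1 alone held between 36.6% and 71.9% of the counts on the 13 genes. On chromosome 1 the annotation places a run of pseudogenes, from Gm28439 at chr1:24611535-24612410 to Gm29216 at chr1:24615706-24616197 (GRCm38), that carries the middle of the mitochondrial genome. Counting stretches of 50 bases, the share of a gene's stretches that also occur in transcripts of another gene was 100% for mt-Co2, 99.9% for mt-Co3, 99.5% for mt-Atp6, 98.8% for mt-Nd4l and 98.0% for mt-Nd3. It was 62.2% for mt-Nd4 and 51.1% for mt-Co1, at most 8.19% for mt-Nd2 and mt-Nd5, and 0% for mt-Nd1, mt-Nd6, mt-Cytb and mt-Atp8. Only annotated transcripts were compared, so the 0% does not cover unannotated nuclear copies. mt-Atp8 lies between mt-Co2 and mt-Atp6 in mitochondrial DNA and overlaps the latter, and the copies of these neighbours lie side by side on chromosome 1 with an unannotated gap between them that was not examined, so mt-Atp8 is counted among the uncertain genes. The short complex I gene mt-Nd4l (chrM:9877-10173, plus strand, a single coding exon) and its copy Gm10222 (chr1:24612407-24612700, minus strand) are printed from GENCODE M21 to show how alike such a pair is, with capitals for the bases of the mitochondrial gene that lie beyond the annotated copy.
mt-Nd4l: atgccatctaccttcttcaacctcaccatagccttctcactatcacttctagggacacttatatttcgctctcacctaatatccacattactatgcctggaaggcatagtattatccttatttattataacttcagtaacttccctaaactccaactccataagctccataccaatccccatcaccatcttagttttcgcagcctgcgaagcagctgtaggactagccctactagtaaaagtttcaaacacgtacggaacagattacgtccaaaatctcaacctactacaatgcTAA
Gm10222: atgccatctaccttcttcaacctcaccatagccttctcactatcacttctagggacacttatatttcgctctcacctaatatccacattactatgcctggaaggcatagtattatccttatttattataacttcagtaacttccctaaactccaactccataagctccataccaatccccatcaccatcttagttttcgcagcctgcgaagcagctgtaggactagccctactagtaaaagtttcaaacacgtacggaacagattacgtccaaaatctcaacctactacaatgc
The 294 bases of Gm10222 matched the first 294 of mt-Nd4l at every position. Gm28438 matched mt-Nd3 at all but 1 of 345 bases, with the substitution T3C, counted from 1 at the first base of the gene and with the mitochondrial base first. Reads from such a pair cannot be assigned with certainty, and the values of these genes, and those of mt-Nd4 and mt-Co1 in part, are uncertain for that reason. Gm10222 held 18 to 128 counts per library beside 12 to 70 for mt-Nd4l, whereas Gm28439 held 27 to 250 beside 10206 to 37980 for mt-Nd4. How the reads were shared out was not tested.

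SX-682 raised the share of all counts on the 13 mitochondrial genes in each line. The share was 0.845% and 0.855% in untreated Melan-A and 1.04% in both libraries with SX-682. It was 0.722% and 0.744% in untreated B16F0 and 0.788% and 0.803% with SX-682, and it was 0.982% and 0.951% in untreated B16F10 and 1.12% in both libraries with SX-682. Treated libraries lay above both untreated libraries in every line, and the mean ratio was 1.22 for Melan-A, 1.09 for B16F0 and 1.16 for B16F10. The 95% Wilson intervals of single libraries reached at most 0.002615 percentage points to each side and cover only the error of counting, the sources describing no molecular identifiers. The nuclear members took a slightly smaller share after SX-682, at 1.16% in both untreated Melan-A libraries and 1.15% in both treated ones, 1.51% and 1.5% against 1.39% and 1.42% in B16F0, and 1.72% in both untreated B16F10 libraries against 1.64% and 1.65%. In bulk RNA, fewer mitochondria or cells of a kind and less RNA in each cannot be told apart.

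The rise in the mitochondrial share was carried by mt-Co1, the catalytic core subunit of complex IV. Its level was 3449 and 3521 CPM in untreated Melan-A and 5136 and 5140 CPM with SX-682. In B16F0 it was 3075 and 3173 CPM untreated and 5696 and 5861 CPM with SX-682. In B16F10 it was 3838 and 3780 CPM untreated and 6018 and 6017 CPM with SX-682. The groups did not overlap in any line, and the log2 fold changes were 0.56 ± 0.02, 0.89 ± 0.02 and 0.66 ± 0.02 (SE, n = 2 per group, edgeR, adjusted p = 1.9e-21, 1.7e-26 and 1.5e-23). mt-Co1 made up 43.4% and 43.8% of the counts on the 13 genes in untreated Melan-A and 53.1% and 53.2% with SX-682, 42.5% and 42.6% against 71.5% and 71.9% in B16F0, and 36.6% and 37.1% against 51.0% and 50.7% in B16F10. Without mt-Co1 the other mitochondrial genes held 0.478% and 0.481% of counts in untreated Melan-A and 0.488% and 0.487% with SX-682. They fell from 0.416% and 0.427% to 0.224% and 0.225% in B16F0 and from 0.623% and 0.598% to 0.550% and 0.551% in B16F10. Gm29216, the pseudogene that matches the end of mt-Co1, held 277 to 607 counts per library, far below mt-Co1 itself.

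**Figure D1:**
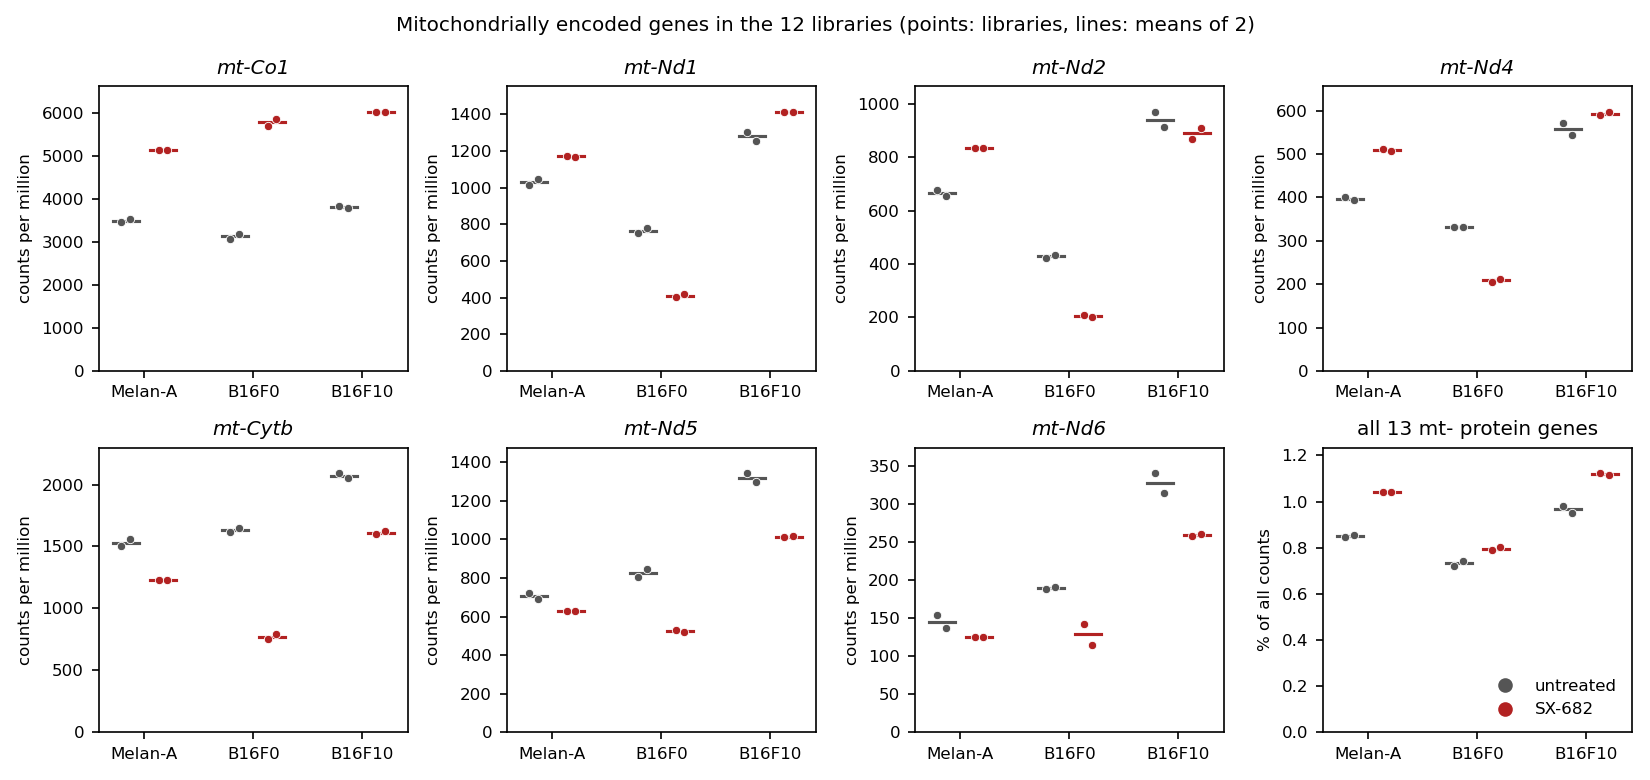
Level in CPM (TMM-scaled, linear axis from 0) of the 7 mitochondrial genes of high counts, and the percentage of all counts on the 13 genes, in the 12 libraries, with grey points for untreated and red for SX-682 and a line at the mean of 2. mt-Co1 is higher with SX-682 in each line, mt-Cytb, mt-Nd5 and mt-Nd6 are lower in each, and mt-Nd1, mt-Nd2 and mt-Nd4 are lower in B16F0 and higher in Melan-A.

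mt-Cytb, mt-Nd5 and mt-Nd6 were lower in all 3 lines, most of all in B16F0. mt-Cytb, the core of complex III, was at 1503 and 1561 CPM in untreated Melan-A and 1233 and 1231 CPM with SX-682, at 1616 and 1652 against 751 and 794 CPM in B16F0, and at 2090 and 2051 against 1600 and 1625 CPM in B16F10. Its log2 changes were -0.31 ± 0.02, -1.08 ± 0.02 and -0.36 ± 0.02 (SE). mt-Nd5, a proton-pumping subunit of complex I, changed by -0.17 ± 0.02, -0.65 ± 0.02 and -0.38 ± 0.02. mt-Nd6, the only protein gene transcribed from the opposite strand, changed by -0.22 ± 0.05, -0.55 ± 0.05 and -0.33 ± 0.05, and its call in Melan-A was lost without untreated replicate 1 (-0.13) and in DESeq2.

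The complex I genes mt-Nd1, mt-Nd2 and mt-Nd4 went in opposite directions in different lines. mt-Nd1 was at 1017 and 1047 CPM in untreated Melan-A and 1175 and 1168 CPM with SX-682, at 752 and 781 against 402 and 418 CPM in B16F0, and at 1305 and 1257 against 1414 and 1413 CPM in B16F10. mt-Nd2 was at 678 and 655 against 833 and 832 CPM in Melan-A, at 424 and 435 against 209 and 201 CPM in B16F0, and at 969 and 911 against 869 and 910 CPM in B16F10, where treated and untreated libraries nearly met. mt-Nd4 was at 401 and 393 against 511 and 506 CPM in Melan-A, at 332 and 333 against 206 and 212 CPM in B16F0, and at 571 and 544 against 589 and 597 CPM in B16F10. All 3 were higher in Melan-A (log2 changes of 0.18, 0.32 and 0.36) and lower in B16F0 (-0.90, -1.07 and -0.67). In B16F10 the changes were small, at 0.14 for mt-Nd1, -0.08 for mt-Nd2 and 0.09 for mt-Nd4, and the calls of mt-Nd2 and mt-Nd4 were each lost when a single library was left out, at -0.03 without untreated B16F10 replicate 1 and -0.06 without treated replicate 1 for mt-Nd2, and at 0.05 without untreated replicate 2 for mt-Nd4.

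**Figure D2:**
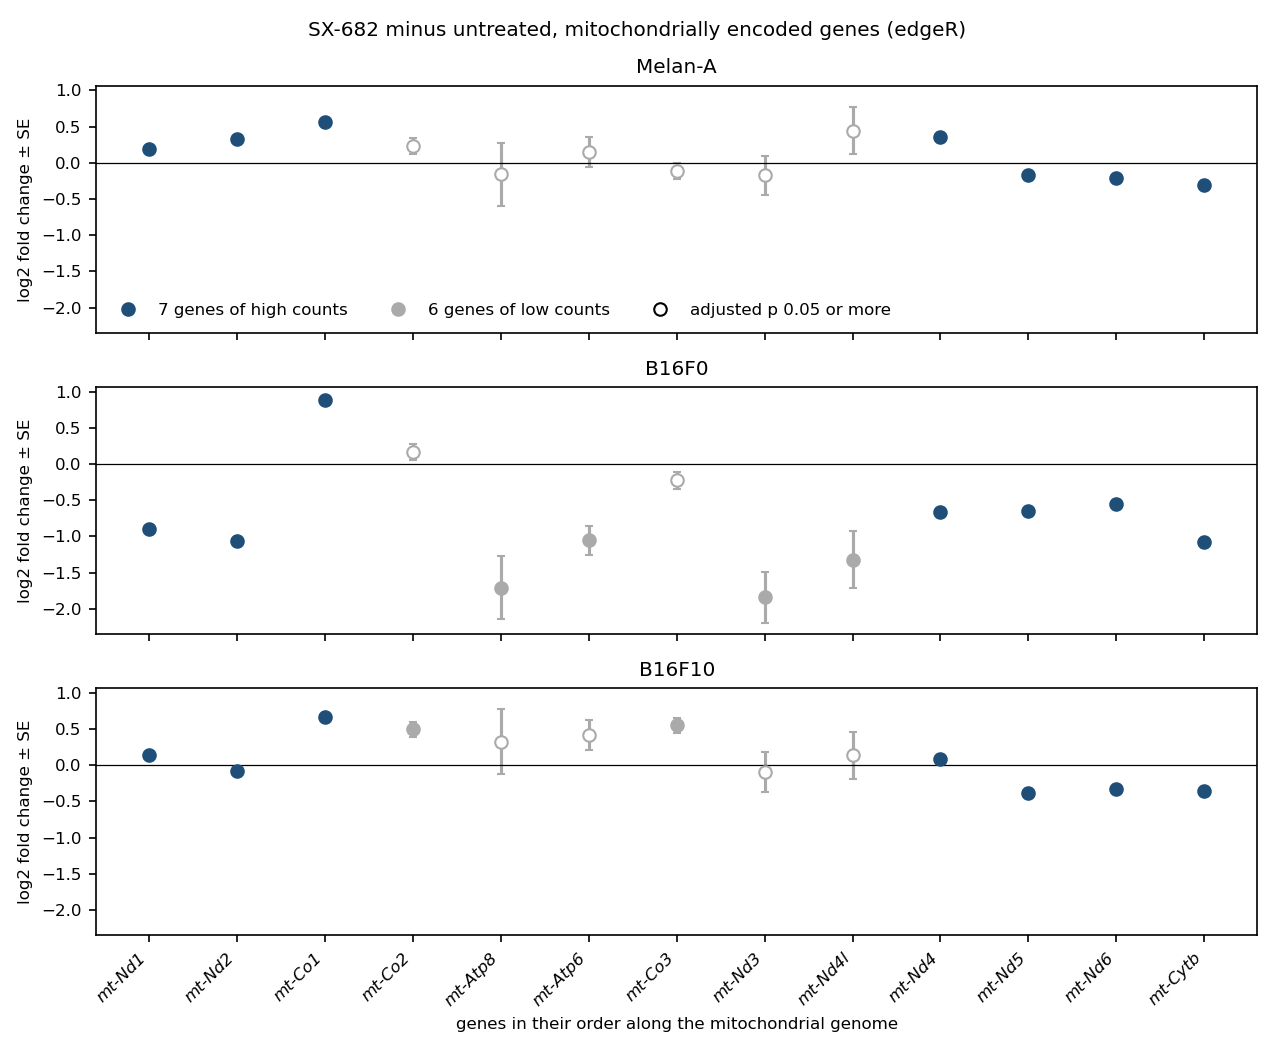
Log2 fold change of SX-682 minus untreated with its SE (vertical axis) for the 13 mitochondrial genes in their order along the mitochondrial genome (horizontal axis), with a panel for each line, blue for the 7 genes of high counts, grey for the 6 of low counts and open points for genes not called. mt-Co1 stands above the line in each panel, at 0.56, 0.89 and 0.66, and in B16F0 the other called genes lie between -0.55 and -1.84.

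Among the 6 genes of low counts, B16F0 untreated replicate 1 stood apart. It held 340 counts of mt-Atp8 against 55 in the other untreated library and 69 and 27 in the treated ones, and 2345 counts of mt-Atp6 against 882, 723 and 504. The calls in B16F0 were -1.71 ± 0.43 for mt-Atp8, -1.06 ± 0.20 for mt-Atp6, -1.84 ± 0.35 for mt-Nd3 and -1.32 ± 0.40 for mt-Nd4l. Without that library the changes were 0.01 for mt-Atp8, -0.29 for mt-Atp6 and -1.09 for mt-Nd4l, and none of these was called. mt-Nd3 fell from 64 and 84 counts to 17 and 16. mt-Co2 and mt-Co3, further subunits of complex IV, were called only in B16F10, at 0.49 ± 0.11 and 0.55 ± 0.11, and the difference between lines was called for mt-Co3 alone of this pair (B16F10 minus B16F0, 0.78 ± 0.16). In Melan-A none of the 6 genes of low counts was called.

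Over all 13 mitochondrial genes, 4 were higher and 3 lower in Melan-A, 1 was higher and 10 lower in B16F0, and 5 were higher and 4 lower in B16F10. Of all genes tested, 23.4% were higher and 24.7% lower in Melan-A, 25.1% and 25% in B16F0, and 25.5% and 25.3% in B16F10. For the 13 genes the median change was 0.15 (Melan-A), -0.90 (B16F0) and 0.13 (B16F10), and over all genes it was 0 in each line. Over the 7 genes of high counts alone the medians were 0.18, -0.67 and -0.08, so that the sign in B16F10 depended on the genes of low counts. Without untreated B16F0 replicate 1, 1 gene was higher and 7 lower in B16F0 with a median of -0.67, and without untreated Melan-A replicate 1 the Melan-A median was 0.01.

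SX-682 lowered more nuclear OXPHOS genes than it raised in each line, with small changes for most. Of the 90 nuclear genes tested, 23 were higher and 38 lower in Melan-A, 17 higher and 40 lower in B16F0, and 21 higher and 37 lower in B16F10. These are 25.6%, 18.9% and 23.3% higher and 42.2%, 44.4% and 41.1% lower, beside the shares over all genes given above. The median changes were -0.04, -0.07 and -0.04. In all 3 lines together, 10 nuclear members were higher, 28 were lower, 2 changed in both directions and 12 were called in none, while 11.3% of all genes were higher and 11.7% lower in all 3 lines. The 2 that changed in both directions were the complex I genes Ndufa13 (-0.17, 0.12 and 0.13 in Melan-A, B16F0 and B16F10) and Ndufv3 (0.27, -0.12 and 0.13). Ndufa13 shares 28.5% of its 50-base stretches with other genes, mainly Tssk6, so its level is uncertain to that extent. The number higher in B16F0 was 8 without untreated replicate 2 and 9 without treated replicate 2, and the number higher in all 3 lines was 6 without untreated B16F0 replicate 2.

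**Figure D3:**
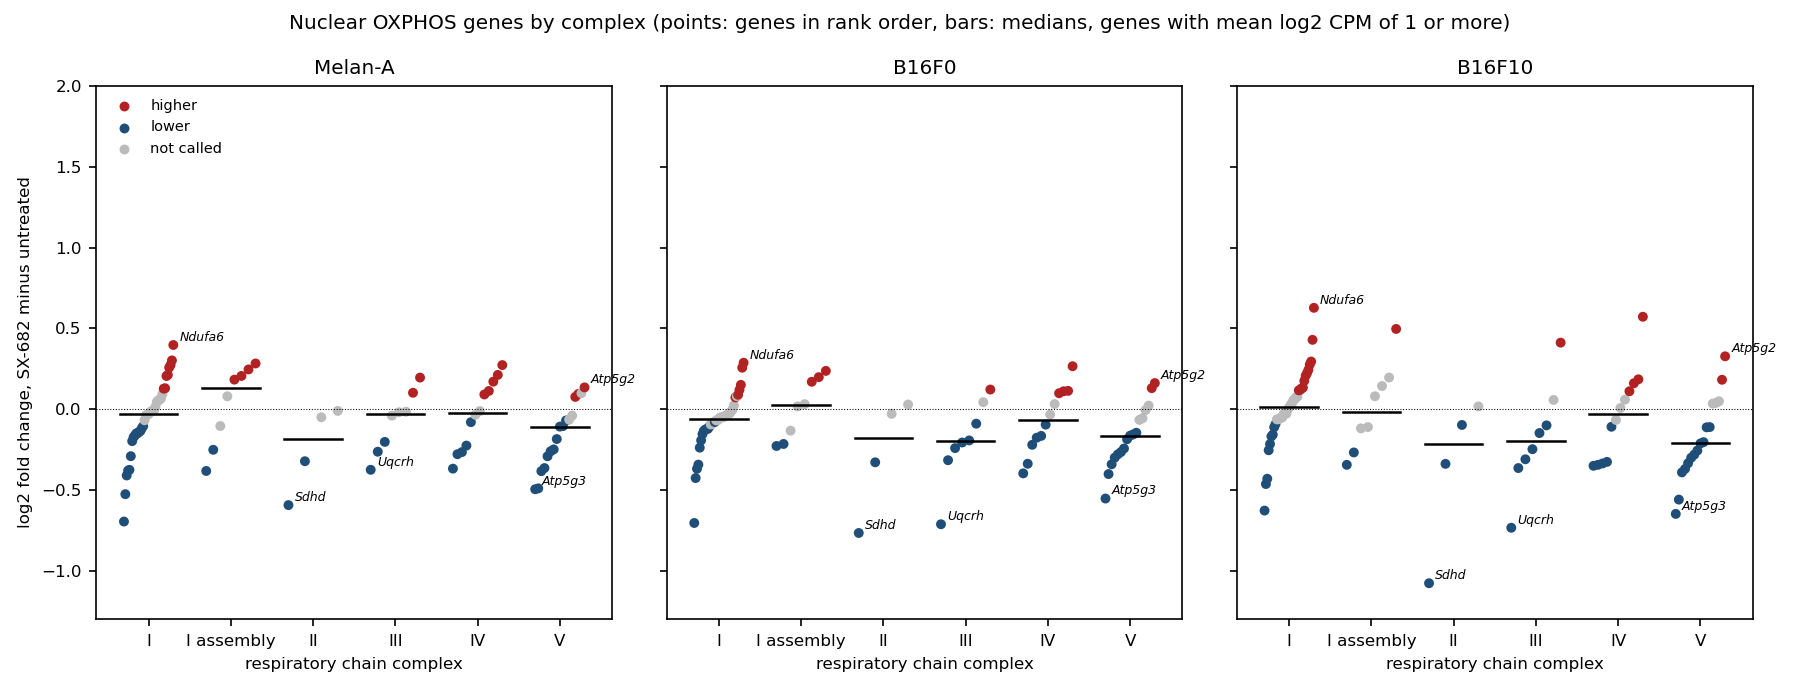
Log2 fold change of SX-682 minus untreated (vertical axis) for the 86 nuclear members with a mean log2 CPM of 1 or more, in rank order within each complex (horizontal axis), with a panel for each line, red for higher, blue for lower, grey for not called and a bar at the median. Sdhd is the lowest point of complex II in each panel and most points of complex V lie below 0.

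Complex V was the complex with the most members lowered together. Of its 17 genes, 11, 11 and 12 were lower and 3, 2 and 2 higher in Melan-A, B16F0 and B16F10, with medians of -0.11, -0.16 and -0.21, and 10 were lower in all 3 lines. The shares lower were 64.7%, 64.7% and 70.6%, beside 24.7%, 25% and 25.3% of all genes. Atp5g1, Atp5g2 and Atp5g3 encode the same mature c subunit, whose ring turns in the membrane, and the 3 genes did not move together. Atp5g3 was at 306 and 309 CPM in untreated Melan-A and 218 CPM in both libraries with SX-682, at 393 and 405 against 256 and 289 CPM in B16F0, and at 598 and 610 against 379 and 392 CPM in B16F10. Its groups did not overlap in any line, and its changes were -0.50 ± 0.03, -0.55 ± 0.03 and -0.65 ± 0.03 (SE, edgeR, adjusted p = 1.9e-13, 1.5e-14 and 1.8e-16). Atp5g1 was at 127 and 126 against 106 CPM in both treated libraries of Melan-A, at 111 CPM in both untreated against 84.3 and 84.0 CPM in B16F0, and at 183 and 177 against 121 and 123 CPM in B16F10, with changes of -0.26, -0.40 and -0.56. Atp5g2 was higher in each line, at 146 and 140 against 159 and 155 CPM in Melan-A, 206 and 196 against 226 and 223 CPM in B16F0, and 193 CPM in both untreated against 238 and 246 CPM in B16F10, with changes of 0.13, 0.16 and 0.33. Of the counts on the 3 genes, Atp5g2 thus took 25.2% and 24.3% in untreated Melan-A and 32.9% and 32.4% with SX-682, 28.9% and 27.5% against 40.0% and 37.4% in B16F0, and 19.8% and 19.7% against 32.3% in both treated libraries of B16F10. Atp5g2 shares 38.3% of its 50-base stretches with other genes, mainly the pseudogene Gm10175, so its level is uncertain to that extent. Of the remaining complex V genes, Atp5k (-0.49, -0.34 and -0.39), Atp5j (-0.38, -0.28 and -0.26) and Atp5j2 (-0.37, -0.24 and -0.30) fell in each line. The catalytic Atp5b was at 1157 and 1165 against 1218 and 1228 CPM in Melan-A and 2315 and 2287 against 2343 and 2328 CPM in B16F0. In B16F10 it was at 3038 and 3022 against 3072 and 3150 CPM. Atp5a1, of the same catalytic head, was at 881 and 899 against 861 and 870 CPM in Melan-A and 961 and 939 against 857 and 838 CPM in B16F0. In B16F10 Atp5a1 was at 1724 and 1703 against 1353 and 1365 CPM.

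**Figure D4:**
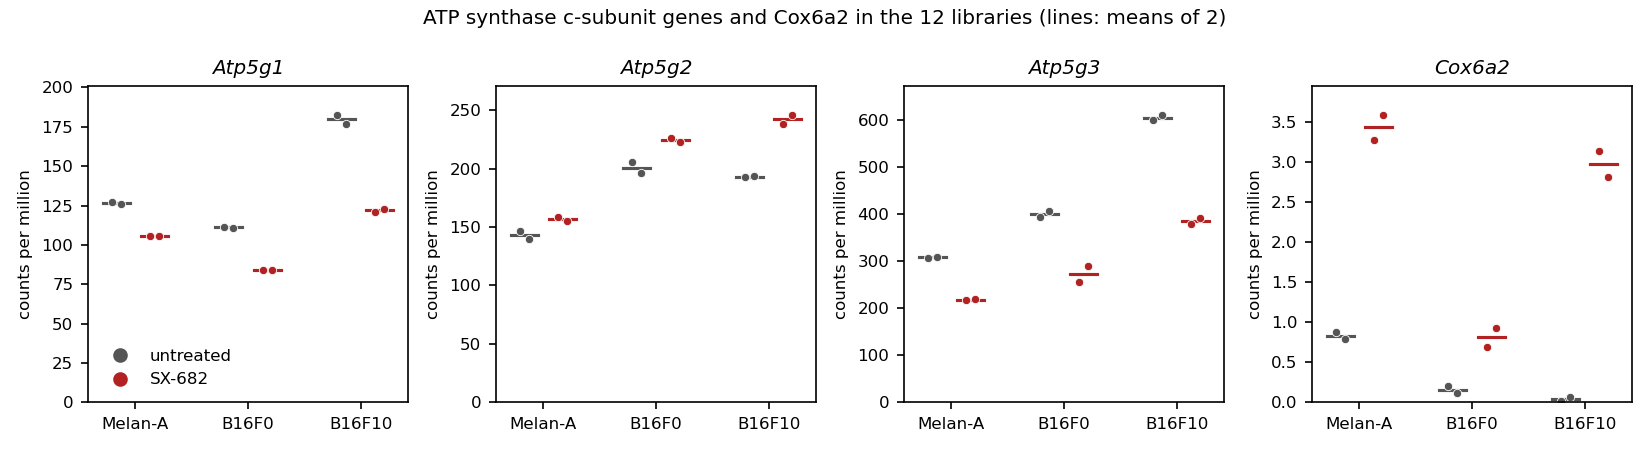
Level in CPM (TMM-scaled, linear axis from 0) of Atp5g1, Atp5g2, Atp5g3 and Cox6a2 in the 12 libraries, with grey points for untreated and red for SX-682 and a line at the mean of 2. With SX-682, Atp5g1 and Atp5g3 are lower and Atp5g2 and Cox6a2 higher in each line.

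In complex II the membrane anchors fell and the catalytic subunits moved little. Sdhd, an anchor subunit that helps form the ubiquinone site, was at 148 and 147 CPM in untreated Melan-A and 97.3 and 98.1 CPM with SX-682. In B16F0 it was at 170 and 162 CPM untreated and 99.2 and 96.1 CPM with SX-682, and in B16F10 at 234 and 233 CPM untreated and 109 and 112 CPM with SX-682. Its changes were -0.59 ± 0.03, -0.77 ± 0.03 and -1.08 ± 0.03 (SE, edgeR, adjusted p = 1.9e-16, 6.8e-19 and 8e-23), so that the 3 lines, which differed when untreated, came to lie within 96.1 to 112 CPM. Sdhc, the other anchor, was at 189 and 187 against 151 and 150 CPM in Melan-A, 182 and 180 against 144 and 143 CPM in B16F0, and 287 and 289 against 226 and 230 CPM in B16F10, with changes of -0.32, -0.33 and -0.34. The iron-sulfur subunit Sdhb was called in no line (-0.01, 0.03 and 0.02). The flavoprotein Sdha was called only in B16F10, at -0.10 ± 0.02, and that call was lost without untreated B16F10 replicate 2 (-0.07).

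Of the 8 complex III genes, 2 (25%) were higher and 3 (37.5%) lower in Melan-A, beside 23.4% and 24.7% of all genes. In B16F0 and also in B16F10, 1 (12.5%) was higher and 6 (75%) were lower, beside 25% and 25.3% of all genes lower. Uqcrh, the hinge protein beside cytochrome c1, was at 88.4 and 92.8 against 70.3 and 69.4 CPM in Melan-A, 150 and 149 against 91.0 and 91.6 CPM in B16F0, and 222 and 228 against 133 and 137 CPM in B16F10. Its changes were -0.38, -0.71 ± 0.03 and -0.73 ± 0.03. Uqcr11 (-0.26, -0.32 and -0.37) and Uqcrb (-0.20, -0.19 and -0.15) also fell in each line, though Uqcrb shares 25.5% of its stretches with other genes. The core protein gene Uqcrc1 was not called in Melan-A (-0.02) and fell in B16F0 (-0.21) and B16F10 (-0.31). Uqcrq, a small subunit, rose in each line, at 225 CPM in both untreated against 257 and 259 CPM in Melan-A, 319 and 315 against 336 and 354 CPM in B16F0, and 283 and 276 against 368 and 377 CPM in B16F10.

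Complex I genes were divided. Of 37 genes, 8, 6 and 12 were higher and 15, 13 and 9 lower in Melan-A, B16F0 and B16F10, with medians of -0.03, -0.06 and 0.01. The shares higher were 21.6%, 16.2% and 32.4% and those lower 40.5%, 35.1% and 24.3%, the last near the 25.3% of all genes lower in B16F10. Ndufa6, an accessory subunit of the LYR family, had the largest rise in each line among nuclear members with a mean log2 CPM of 1 or more, at 63.8 and 67.8 against 87.0 and 86.3 CPM in Melan-A, 77.1 and 80.3 against 89.4 and 103 CPM in B16F0, and 80.1 and 77.5 against 121 and 122 CPM in B16F10, with changes of 0.40 ± 0.04, 0.29 ± 0.04 and 0.63 ± 0.04. The accessory gene Ndufa7 (0.13, 0.26 and 0.43) and the core gene Ndufs7 (0.26, 0.15 and 0.28) rose in each line as well, and Ndufb9 rose in Melan-A (0.30) and B16F10 (0.29). The accessory gene Ndufb2 was low, at 8.41 and 9.36 against 5.30 and 5.66 CPM in Melan-A, 6.38 and 7.24 against 4.45 and 3.84 CPM in B16F0, and 11.4 and 10.8 against 7.24 and 7.13 CPM in B16F10, and its changes were -0.70 ± 0.10, -0.71 ± 0.11 and -0.63 ± 0.10. Ndufb3 (-0.53, -0.34 and -0.43), Ndufa5 (-0.38, -0.43 and -0.25), Ndufb7 (-0.41, -0.24 and -0.46) and the core gene Ndufs1 (-0.12, -0.19 and -0.22) also fell in each line. Among the 8 assembly factors Ndufaf2 and Ndufaf4 fell in each line and none rose in all 3, while Ndufaf3 rose in B16F0 (0.24) and B16F10 (0.50) and Ndufaf6 in Melan-A (0.28). Ndufaf2 shares 64.1% of its stretches with other annotated genes.

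Complex IV had similar numbers in both directions. Of 16 genes tested, 6, 5 and 5 were higher and 5, 6 and 5 lower in Melan-A, B16F0 and B16F10. The shares higher were 37.5%, 31.25% and 31.25%, beside 23.4%, 25.1% and 25.5% of all genes. Those lower were 31.25%, 37.5% and 31.25%, beside 24.7%, 25% and 25.3% of all genes. In all 3 lines together, 4 genes were higher and 4 lower, beside 11.3% and 11.7% of all genes. The higher genes were Cox4i1, the widely expressed form of subunit IV (0.21, 0.10 and 0.18), Cox7a2l, which takes part in joining complexes III and IV (0.27, 0.27 and 0.57), Cox7c (0.09, 0.11 and 0.16) and Cox6a2. The lower genes were Cox6b1 (-0.23, -0.34 and -0.33), Cox7a2 (-0.27, -0.40 and -0.35), Cox7b (-0.37, -0.18 and -0.35) and Ndufa4 (-0.28, -0.22 and -0.34). The Cox4i1 call in B16F0 was lost without untreated replicate 2 (0.04). Cox7a2l was at 112 CPM in both untreated against 136 and 135 CPM in Melan-A, 113 and 114 against 134 and 139 CPM in B16F0, and 118 CPM in both untreated against 176 and 175 CPM in B16F10. Cox7a2l and its relative Cox7a2, the ubiquitous subunit VIIa, therefore moved apart in each line. Cox8a, the ubiquitous subunit VIII, rose in Melan-A (0.17) and B16F10 (0.11), and Cox6a1 rose in B16F0 (0.11).

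Cox6a2, the form of subunit VIa known from heart and skeletal muscle, had low counts that rose in each line. It had 76 and 72 counts in untreated Melan-A and 234 and 270 with SX-682, 15 and 8 against 46 and 45 in B16F0, and 1 and 4 against 191 and 165 in B16F10. The treated libraries lay above both untreated ones in each line. The ratios of summed counts over scaled library sizes were 4.12 in Melan-A (95% exact interval 3.43 to 4.99), 4.93 in B16F0 (3.09 to 8.17) and 74.3 in B16F10 (31.6 to 230), for counting error only. Its level with SX-682 was at most 3.60 CPM, beside 129 to 278 CPM for the ubiquitous form Cox6a1, so that Cox6a2 counts stayed a small addition. Cox6a2 lies within the span of Itgad on chromosome 7, and Itgad had 0 to 8 counts in every library. The remaining low members were Ndufa4l2, a hypoxia-induced relative of Ndufa4 that was found in B16F0 at 145 to 198 counts per library and at 0 to 17 in the other lines, Cox7b2, with 17 to 27 counts in Melan-A and 0 in every B16 library except 5 counts in B16F10 with SX-682 replicate 2, and Cox7a1, with 5 to 22 counts in each library. None of these 3 was called for SX-682 in any line, though the ratio of Ndufa4l2 counts in B16F0 was 1.58 (1.36 to 1.85 for counting error only). Cox4i2 had 0 to 22 counts and Cox6b2 0 to 3, and neither was tested.

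The promoters of genes that fell and rose are shown for Sdhd and Uqcrh, the 2 deepest falls in both B16 lines among nuclear members with a mean log2 CPM of 1 or more, and for the c-subunit pair Atp5g2 and Atp5g3, which moved apart. Each is the RefSeq sequence from 250 bases before to 50 after the gene's start (GRCm38.p6), at chr9:50603800-50604099, chr4:116075021-116075320, chr15:102670998-102671297 and chr2:73911277-73911576, all on the minus strand and printed 5′ to 3′, with capitals for matches to the words searched.
Sdhd: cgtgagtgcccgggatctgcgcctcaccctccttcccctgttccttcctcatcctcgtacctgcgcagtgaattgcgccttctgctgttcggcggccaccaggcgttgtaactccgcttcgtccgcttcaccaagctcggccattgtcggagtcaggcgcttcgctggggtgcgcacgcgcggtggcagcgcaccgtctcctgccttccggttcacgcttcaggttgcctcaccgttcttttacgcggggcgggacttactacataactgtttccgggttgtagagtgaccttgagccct
Uqcrh: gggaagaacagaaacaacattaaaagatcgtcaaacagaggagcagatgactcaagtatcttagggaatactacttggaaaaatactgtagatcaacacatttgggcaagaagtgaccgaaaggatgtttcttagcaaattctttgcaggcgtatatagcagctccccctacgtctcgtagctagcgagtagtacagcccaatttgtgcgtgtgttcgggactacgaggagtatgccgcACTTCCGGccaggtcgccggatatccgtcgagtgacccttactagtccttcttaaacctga
Atp5g2: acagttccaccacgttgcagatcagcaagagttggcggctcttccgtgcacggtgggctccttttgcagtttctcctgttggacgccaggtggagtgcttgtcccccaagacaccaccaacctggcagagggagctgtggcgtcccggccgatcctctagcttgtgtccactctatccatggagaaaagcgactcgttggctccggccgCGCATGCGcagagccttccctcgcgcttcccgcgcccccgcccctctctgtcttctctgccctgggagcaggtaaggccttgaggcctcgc
Atp5g3: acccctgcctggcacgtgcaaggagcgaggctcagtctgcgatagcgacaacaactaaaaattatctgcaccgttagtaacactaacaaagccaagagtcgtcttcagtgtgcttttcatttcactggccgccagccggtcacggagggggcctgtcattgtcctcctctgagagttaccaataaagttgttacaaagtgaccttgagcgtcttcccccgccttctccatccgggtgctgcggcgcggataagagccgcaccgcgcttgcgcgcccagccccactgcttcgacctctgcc
The words searched on both strands were CGCATGCG, a core of sites of NRF1, ACTTCCGG, a core of sites of ETS factors such as GABP, and AAGATGGC, a core of sites of YY1. They do not overlap one another in the promoters shown, and each factor is known as a regulator of nuclear OXPHOS genes. Of the 92 nuclear members, 76 were matched to a promoter. The NRF1 word was in 13.2% of these promoters against 1.91% of all 27025, the YY1 word in 13.2% against 2.88%, and the ETS word in 6.58% against 4%. The NRF1 word was in 4 of the 24 promoters of members lower in all 3 lines and in 1 of the 6 of those higher in all 3, the YY1 word in 3 and 1, and the ETS word in 2 and 0. Uqcrh held the ETS word and Atp5g2 the NRF1 word, and Sdhd and Atp5g3 held none of the 3. A match is a description of the letters only.

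Averaged over both B16 lines, untreated cells had higher levels of nearly all nuclear OXPHOS genes than untreated Melan-A cells. Of 90 genes, 81 (90.0%) were higher and 4 lower in the mean of the B16 lines, where 33.7% of all genes were higher and 42.4% lower. The median difference was 0.51, against -0.09 over all genes. Some genes called higher in this mean lay below both untreated Melan-A libraries in B16F0. Atp5g1 was at 111 CPM in both untreated B16F0 libraries against 127 and 126 CPM in Melan-A. Cox8a (224 and 221 against 238 and 254 CPM) and Sdhc (182 and 180 against 189 and 187 CPM) also lay below. Ndufa2, called lower, was at 65.4 and 65.3 CPM in B16F0 and 107 and 108 CPM in B16F10, against 87.1 and 89.0 CPM in Melan-A. The summed level of the nuclear members was 10924 and 10946 CPM in untreated Melan-A, 15002 and 15184 CPM in B16F0, and 18328 and 18394 CPM in B16F10. Cox7b differed most among the abundant members, at 67.6 and 68.6 CPM in Melan-A, 305 and 306 CPM in B16F0 and 180 and 178 CPM in B16F10, a difference of 1.78 ± 0.03. The ATP synthase catalytic gene Atp5b was at 1157 and 1165 CPM in Melan-A against 2315 and 2287 CPM in B16F0 and 3038 and 3022 CPM in B16F10 (1.19 ± 0.02). Cox6b1 (1.22), Cox7a2 (1.12), Sdhb (1.03) and Uqcrh (1.02) were also higher by about 1 log2 unit or more. The 4 lower genes were Cox6a2 and Cox7b2, both low in counts, Ndufaf8 (-0.28) and Ndufa2 (-0.07), the last of which lost its call in 6 alternatives. The difference did not extend evenly to mitochondrially encoded genes, of which 5 were higher and 2 lower with a median of 0.20. mt-Nd6 (0.77) and mt-Nd5 (0.56) were higher in the mean of the B16 lines, and mt-Co1 was not called (-0.01). mt-Co1 was lower in untreated B16F0 (3075 and 3173 CPM) and higher in B16F10 (3838 and 3780 CPM) than in Melan-A (3449 and 3521 CPM). mt-Nd4 was split in the same way, at 332 and 333 CPM in B16F0, 571 and 544 CPM in B16F10 and 401 and 393 CPM in Melan-A. The mean differences of mt-Nd1 (-0.06) and mt-Nd2 (-0.07) were negative only as averages of lines on opposite sides of Melan-A, since both genes were lower than untreated Melan-A in both untreated B16F0 libraries and higher in both of B16F10, at the levels given above. Their calls depended on single libraries, and the number lower was 1 without any of untreated Melan-A replicate 1 or 2 or untreated B16F0 replicate 1, and 0 without untreated B16F10 replicate 2. With all counts scaled by library totals alone the nuclear median was 0.37 and the mitochondrial one 0.06. Melanocyte markers also differed between these lines, 6 of 7 being higher in the B16 lines with a median of 4.31. Their part in the OXPHOS difference was not tested.

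**Figure D5:**
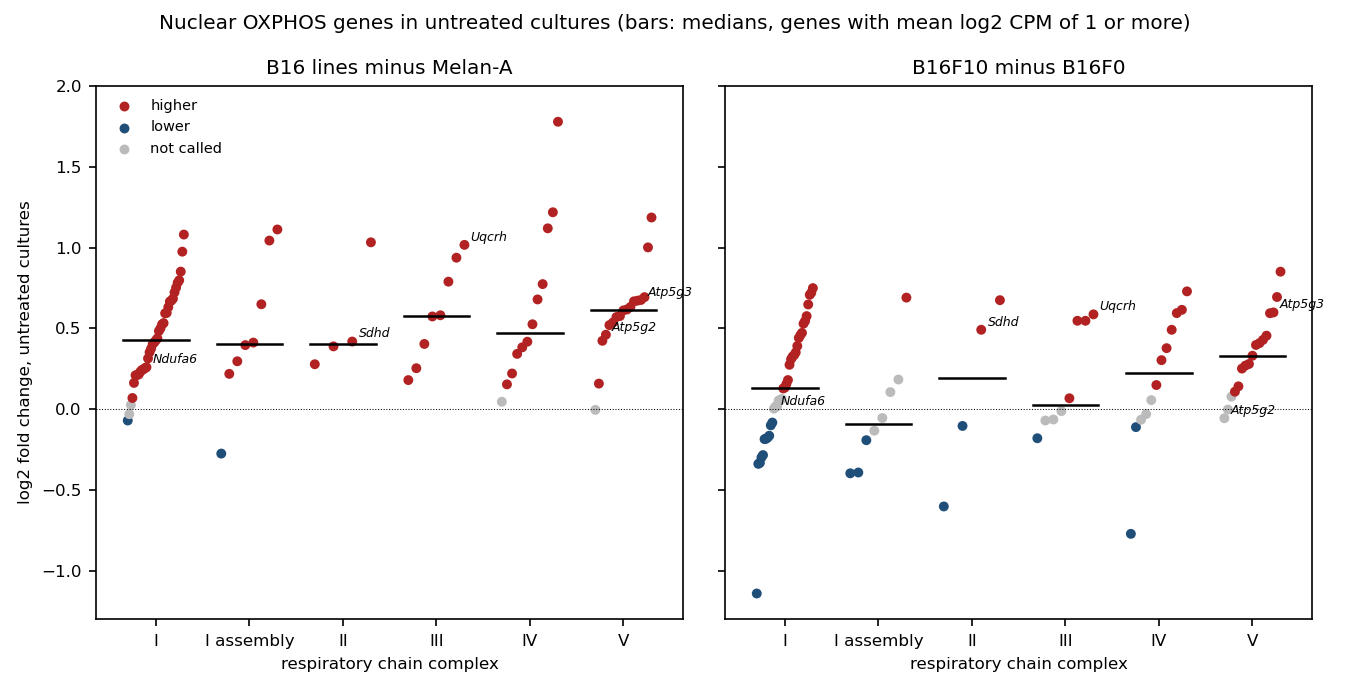
Log2 fold change between untreated cultures (vertical axis) for the 86 nuclear members with a mean log2 CPM of 1 or more, in rank order within each complex (horizontal axis), with the mean of the B16 lines minus Melan-A on the left and B16F10 minus B16F0 on the right, red for higher, blue for lower, grey for not called and a bar at the median. Medians on the left lie between 0.40 and 0.61, and on the right complex V has the highest median, at 0.33.

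Between the melanoma lines, untreated B16F10 had higher levels than untreated B16F0 of 48 of 90 nuclear genes (53.3%) and lower levels of 21, with 30.8% of all genes higher and 31.2% lower, and a median of 0.14. Complex V stood highest, with 14 of 17 higher and 0 lower (median 0.33), led by Atp5a1, the other catalytic-head subunit, at 961 and 939 CPM in B16F0 and 1724 and 1703 CPM in B16F10 (0.85 ± 0.02). Ndufb9 (0.75), Cox6b1 (0.73) and Ndufa2 (0.72) were the next largest. Ndufv3 was lower, at 116 and 114 CPM in B16F0 against 51.7 and 52.8 CPM in B16F10 (-1.14 ± 0.04), as were Cox7b (-0.77), Sdhb (-0.60) and Ndufaf2 (-0.40). In complex II the subunits were split, with Sdhc (0.67) and Sdhd (0.49) higher and Sdhb and Sdha (-0.10) lower in B16F10. The Sdha call was lost without untreated B16F10 replicate 1 (-0.07). All 7 mitochondrial genes of high counts were higher in B16F10, by 0.29 for mt-Co1 to 1.13 for mt-Nd2. Over all 13, 8 were higher and 2 lower, with a median of 0.53. The 2 lower were mt-Atp6 and mt-Atp8, and without untreated B16F0 replicate 1 the number lower was 1. It was also 1 in DESeq2 and without untreated B16F10 replicate 2. With library totals alone the nuclear median was 0.04. These comparisons use the same untreated libraries as the SX-682 responses and are given beside them without comparing the lists.

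The size of the SX-682 response differed between lines for a larger share of the mitochondrial genes than of the nuclear ones. For B16F10 minus B16F0, 11 of 13 mitochondrial genes had a higher response in B16F10 and 1 a lower one, with a median of 0.78, where 15.3% of all genes were higher and 14.9% lower. Of the 90 nuclear genes, 18 (20%) were higher and 8 (8.9%) lower, with a median of 0.03. The mitochondrial differences were 1.04 ± 0.03 for mt-Nd1, 0.99 ± 0.04 for mt-Nd2, 0.76 ± 0.03 for mt-Nd4 and 0.72 ± 0.03 for mt-Cytb. mt-Co1 was the gene in the other direction, at -0.23 ± 0.02. Without untreated B16F0 replicate 1, 9 mitochondrial genes were higher. For the mean of the B16 lines minus Melan-A, 1 mitochondrial gene was higher (mt-Co1, 0.21) and 6 were lower, led by mt-Nd2 (-0.89 ± 0.03), with 18.7% of all genes higher and 17.1% lower. In this comparison 15.6% of the nuclear genes had a higher response and 22.2% a lower one. The nuclear members had 14 higher and 20 lower there, and the number higher was between 6 and 16 when single libraries were left out.

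Single nuclear genes also differed in response. Sdhd fell further in the B16 lines than in Melan-A (-0.33 ± 0.04) and further in B16F10 than in B16F0 (-0.31 ± 0.04). Uqcrh (-0.35 ± 0.04), Ndufv3 (-0.27) and Uqcrc1 (-0.24) had lower responses in the B16 lines than in Melan-A, and Ndufa13 (0.30), Ndufaf3 (0.29), Ndufa7 (0.22) and Atp5l (0.16) had higher ones. Ndufa6 (0.34 ± 0.06), Cox7a2l (0.31) and Uqcrq (0.29) rose further in B16F10 than in B16F0. Ndufb9 (0.33) rose in B16F10 and not in B16F0, where it was at 72.5 and 70.4 against 68.9 and 70.3 CPM. Ndufaf8 (-0.31), Ndufb7 (-0.23) and Cox7b (-0.17) had lower responses in B16F10 than in B16F0. Ndufaf3 lost its call without treated Melan-A replicate 2 (0.23). Atp5l lost it in 4 alternatives, each without a single library, and Ndufaf8 in 5.

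Genes of the same pathway outside the members were counted from lists. Of 37 assembly factors tested, 3 were higher and 4 lower in all 3 lines, the larger moves being Surf1, a complex IV assembly factor (0.50, 0.39 and 0.70), and Sdhaf3 (0.36, 0.37 and 0.52) among the higher, and Cox19 (-0.48, -0.89 and -1.08) and Atpaf1 (-0.23, -0.52 and -0.40) among the lower. Of 16 genes for electron carriers and the enzymes that feed them (cytochromes c and c1, ubiquinone synthesis, the electron-transfer flavoproteins, and the dehydrogenases Dhodh and Gpd2), 2 were higher, Coq3 and Coq9, and 4 lower, with Pdss1, which makes the ubiquinone side chain (-0.61, -0.75 and -0.74), and Coq7 (-0.41, -0.47 and -0.49) the largest and Cycs, cytochrome c itself, at -0.33, -0.34 and -0.46. Of 16 genes for mitochondrial DNA maintenance and transcription, Polg2 (1.05, 0.47 and 0.83) and Tfb1m (0.48, 0.36 and 0.70) were higher and Tfb2m, the transcription initiation factor (-0.22, -1.23 and -1.0), and Ssbp1 (-0.11, -0.17 and -0.13) lower. Of 16 genes for mitochondrial RNA processing and stability, 6 were higher, led by Mtpap, the mitochondrial poly(A) polymerase (0.54, 0.42 and 0.66), and Supv3l1 (0.24, 0.43 and 0.37), and 1 was lower, Fastkd5 (-0.63, -1.56 and -1.56). Of 10 nuclear regulators, 3 were lower and none higher, with Gabpb2 at -0.52, -0.54 and -0.56 and Yy1 at -0.20, -0.44 and -0.21. Ppargc1a, a coactivator of mitochondrial gene expression that was named after its values were seen, was called in every line in different directions, with 0.91 for Melan-A, -0.85 for B16F0 and 0.30 for B16F10. These counts stand beside 11.3% of all genes higher and 11.7% lower in all 3 lines.

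Markers of cell type moved with SX-682 as well. Of 7 melanocyte markers, 2 were higher and 4 lower in Melan-A and all 7 were lower in both B16 lines, beside 24.7%, 25% and 25.3% of all genes lower, with summed levels of 1346 to 1355 CPM in treated Melan-A, 15770 to 15958 CPM in treated B16F0 and 14947 to 15188 CPM in treated B16F10. Of 6 fibroblast markers tested, 4 were lower and 0 higher in Melan-A (median -0.88), where their summed level was 113.9 to 115.5 CPM untreated and 93.6 to 94.9 CPM with SX-682, led by Lum (-2.41). In B16F0 1 was higher and 1 lower, and in B16F10 2 were higher and 1 lower. The part of these markers in the OXPHOS changes was not tested.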

How the data were processed

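The authors deposited whole-number counts of reads per gene, without normalization, for 34513 genes in 12 libraries, with gene lengths and mm10 coordinates. The submitters' processing notes name cutadapt, STAR and DESeq2. The counting program and its strand setting are not given in the sources used here. Of these genes, 34422 had their identifier in GENCODE M21 (GRCm38) and 34174 the same coordinates.

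Counts were tested with edgeR 4.0.16 (R 4.3.3) in a single fit of the 6 groups, with filterByExpr, TMM scaling, a prior count of 0.125 and 6 residual degrees of freedom. SE were derived from the F statistic. The fit was tested on simulated data. Between replicates the chi-square per gene was 2.73 to 5.05, above the 1 of counting error alone. Alternatives were DESeq2 1.42.0, RLE scaling, other filters, the mitochondrial genes left out of the scaling, separate fits, the replicate number as a block, and each library left out.

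Members and gene lists were chosen with earlier results of these data known. Named were all mitochondrial members, the 4 largest called rises and falls of nuclear members per comparison at a mean log2 CPM of at least 1, complex II, the isoform genes and members not passing the filter. Of lists outside the members, the 2 largest moves in each direction called in all 3 lines were named. Others (such as Ndufs1, Cycs and Ppargc1a) were chosen after their values were seen. Values of some single genes are not reported here.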

Additional observations from a re-analysis of the deposited data

Results flagged for a closer look

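The response to SX-682 differed between lines, by edgeR's test of the difference itself, for many members. Given here are the mitochondrial genes called, the 4 largest nuclear differences in each direction among genes with a mean log2 CPM of at least 1, and the called genes of complex II and of the isoform groups. For the mean of the B16 lines minus Melan-A, the differences (log2) were 0.21 for mt-Co1, -0.41 for mt-Cytb, -0.56 for mt-Nd1, -0.89 for mt-Nd2, -0.65 for mt-Nd4, -0.34 for mt-Nd5 and -0.23 for mt-Nd6 among mitochondrial genes. Among nuclear genes they were 0.16 for Atp5l, 0.30 for Ndufa13, 0.22 for Ndufa7, 0.29 for Ndufaf3, -0.27 for Ndufv3, -0.33 for Sdhd, -0.24 for Uqcrc1 and -0.35 for Uqcrh. Among isoform genes they were 2.19 for Cox6a2, -0.22 for Atp5g1, 0.11 for Atp5g2, -0.11 for Atp5g3, 0.12 for Cox6a1, -0.11 for Cox7a2, 0.15 for Cox7a2l, 0.10 for Cox7b and -0.099 for Cox8a. Atp5g2 lost its call when single libraries were left out, with a value of 0.07 without untreated Melan-A replicate 1. Atp5g3 and mt-Nd6 lost theirs in DESeq2 (-0.11 and -0.23) and when single libraries were left out.

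For B16F10 minus B16F0, the differences were 1.04 for mt-Nd1, 0.99 for mt-Nd2, 0.76 for mt-Nd4, 0.72 for mt-Cytb, 0.27 for mt-Nd5, 0.22 for mt-Nd6 and -0.23 for mt-Co1, and, among the mitochondrial genes of low counts, 1.47 for mt-Atp6, 2.03 for mt-Atp8, 0.78 for mt-Co3, 1.75 for mt-Nd3 and 1.45 for mt-Nd4l. Without untreated B16F0 replicate 1 the values were 0.31 for mt-Atp8 and 1.22 for mt-Nd4l, neither of them called. mt-Atp6 had 2345 counts in that library and 882 in the other untreated one, and its SX-682 change in B16F0 was -0.29 without it. mt-Atp8 also lost its call in DESeq2 (2.03) and without untreated B16F10 replicate 2 (1.78). Both mt-Nd4l and mt-Nd6 lost their call in several alternatives (7 and 6 of them). Among nuclear genes the differences were 0.31 for Cox7a2l, -0.17 for Cox7b, 0.34 for Ndufa6, -0.31 for Ndufaf8, -0.23 for Ndufb7, 0.33 for Ndufb9, -0.31 for Sdhd and 0.29 for Uqcrq, and, among isoform genes, 3.84 for Cox6a2, -0.16 for Atp5g1, 0.17 for Atp5g2 and -0.12 for Ndufa4. The Cox6a2 values rest on 5 counts in untreated B16F10 and 23 in untreated B16F0.

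The ribosomal RNA genes of mitochondrial DNA are not protein coding and so are no members, and they were higher with SX-682 in the B16 lines. mt-Rnr1 had 6638 and 6339 counts in untreated B16F0 against 18567 and 14318 with SX-682 (log2 change 1.66), and 4977 and 5198 against 36354 and 35661 in B16F10 (2.89). mt-Rnr2 changed by 0.35 in B16F0 and 1.11 in B16F10. In Melan-A the changes were 0.07 for mt-Rnr1 and -0.09 for mt-Rnr2. Untreated, the mean of the B16 lines differed from Melan-A by -2.33 for mt-Rnr1 and -1.18 for mt-Rnr2. mt-Rnr1 averaged 434 CPM in untreated Melan-A, and 290 CPM in B16F0 and 605 CPM in B16F10 with SX-682.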

How the results depend on the processing

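Depth limits the 6 mitochondrial genes of low counts and Cox6a2, Cox7a1, Cox7b2 and Ndufa4l2. Of 166 named gene results, 142 kept direction and call under every alternative, and mt-Atp8 reversed without untreated B16F0 replicate 1. Its values when single libraries were left out ranged from -2.46 to 0.0054 for SX-682 in B16F0 and from -2.19 to 0.29 for untreated B16F10 minus B16F0. Leaving out a library leaves its group with 1 sample, which is assumed to vary like the other groups. With the replicate number as a block, 24 nuclear members were higher in Melan-A against 23, and the block changed no count by over 1.5 times. Over all genes tested, the deviations of same-numbered libraries from their group means had correlations of 0.003, -0.009 and -0.013 in the 3 lines. Every gene weighed the same in these values, including those of low counts. Whether same-numbered libraries shared more than a number was therefore not settled. The causes were not tested.

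The nuclear median of untreated B16 minus Melan-A was 0.48 with RLE scaling and with DESeq2, 0.46 with at least 10 counts in every library and 0.37 with library totals alone, where the mitochondrial median was 0.065 and the nuclear median of B16F10 minus B16F0 was 0.044. DESeq2 called 1 mitochondrial gene lower in untreated B16F10 minus B16F0. Without the 6 mitochondrial genes of low counts, an alternative chosen after the data were seen, the mitochondrial median was -0.67 in B16F0, -0.079 in B16F10 (reversed) and 0.74 for untreated B16F10 minus B16F0. With rRNA and tRNA genes included, the ratios of the mitochondrial share were 1.2, 1.11 and 1.23 in Melan-A, B16F0 and B16F10.

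When single libraries were left out, the nuclear members higher numbered 8 to 18 in B16F0, 6 to 11 in all 3 lines and 6 to 16 for the response of the B16 lines minus Melan-A. In Melan-A the mitochondrial median ranged from 0.0077 to 0.21. It ranged from -0.93 to -0.67 for SX-682 in B16F0, from 0.34 to 0.65 for untreated B16F10 minus B16F0 and from 0.72 to 0.90 for the response of B16F10 minus B16F0. The nuclear median ranged from 0.47 to 0.52 for untreated B16 minus Melan-A and from 0.13 to 0.18 for untreated B16F10 minus B16F0. Mitochondrial genes lower numbered 0 to 2 and 1 to 2 in these, and those higher 1 to 2 for the response of the B16 lines minus Melan-A.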
